A study of Homo sapiens with 5 samples.

Results

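The genes described here are the potassium channel genes of 5 human cell lines, taken as every row of the deposited expression table whose symbol starts with KCN and a further letter and holds no hyphen. The rule found 98 of the 57905 genes in the table, of which 95 are protein-coding and 3 are non-coding or pseudogene entries (KCNQ1OT1, KCNQ1DN and KCNMB3P1). By symbol they comprise 40 voltage-gated genes, 15 inward rectifiers, 15 tandem-pore-domain channels, 8 calcium- or sodium-activated channels and 17 auxiliary and regulatory genes. The voltage-gated class includes the KCNF, KCNG, KCNS and KCNV genes, among them KCNG1 and KCNS3, silent subunits that modify other voltage-gated channels. MKL-1, MKL-2, WaGa and MCC13 are Merkel cell carcinoma (MCC) lines, derived from a neuroendocrine cancer of the skin, and REH is a pre-B-cell acute lymphoblastic leukemia line. All 5 lines were labelled wild type, were grown in RPMI medium with fetal bovine serum, and contributed 1 library of poly(A)-enriched RNA each. Each line stands for a single tumour, and no line had a replicate library, so p-values measure the spread between lines. The series was built around PAX5, a B-lineage transcription factor, in Merkel cell carcinoma.

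Potassium channels let potassium ions leave or enter the cell along their gradient, and so set the resting membrane potential and end each action potential. Voltage-gated subunits open on depolarization, inward rectifiers and tandem-pore channels hold the resting potential, and calcium-activated channels couple it to intracellular calcium. Auxiliary subunits do not conduct but change the gating or the surface level of the pore. Merkel cells of the skin are excitable mechanosensory cells that fire action potentials, and lymphocytes use a small set of potassium channels to sustain calcium entry.

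Levels are given as TPM, transcript abundance per length scaled to a common sum, so they can be compared between genes. MKL-1, MKL-2 and WaGa are called the trio below, and 3 values given for the trio follow that order. The read depth behind a value is unknown, because TPM keeps none. Genes reaching 1 TPM numbered from 15949 in MCC13 to 16921 in MKL-2. In REH, 21 genes were listed at exactly 0 that stood at 50 TPM or more in each of the other 4 lines. Each MCC line had 0 or 1 such genes. REH is the only leukemia line, and the keratin genes KRT8 and KRT18 are among the 21. A zero in REH can thus be a failed estimate or a silent gene, which cannot be told apart here. Such a value is described as listed at 0. The labels were set against marker lists. The 11 Merkel and neuroendocrine markers summed to 4242, 5233 and 8512 TPM in the trio, 546 in MCC13 and 1.82 in REH. In MCC13 only 3 of the 11 reached 1 TPM, and ATOH1, INSM1, ISL1, KRT20 and NEUROD1 were listed at 0. The 3 were KRT8 (313 TPM), KRT18 (229 TPM) and SYP (3.23 TPM). KRT18 was higher there than in MKL-1 (86.4 TPM) and WaGa (185 TPM), and lower than in MKL-2 (239 TPM). The 8 mesenchymal markers summed to 10308 TPM in MCC13 and to between 5.28 and 14.7 TPM in the other 3 MCC lines. In REH they summed to 963 TPM, of which VIM held 724 TPM and LGALS1 217 TPM. The 10 early B markers summed to 6224 TPM in REH, where 9 of them reached 1 TPM and VPREB1 was listed at 0, and to between 2.75 and 208 TPM in the MCC lines.

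Of the 98 genes, 77 reached 1 TPM in at least 1 line. The other 21 stayed below 1 TPM everywhere, at most 0.963 TPM (KCNT2 in MCC13), and 5 of them (KCNG4, KCNK16, KCNK17, KCNU1 and KCNQ1DN) were listed at 0 in all 5 lines. Potassium channel genes at 1 TPM or more numbered 53, 54 and 61 in the trio, 27 in MCC13 and 29 in REH. MCC13 and REH thus expressed about as many as each other and fewer than any of the remaining lines. Among protein-coding genes, 55.8% of the potassium channel genes reached 1 TPM in MKL-1 and MKL-2, 63.2% in WaGa, 28.4% in MCC13 and 30.5% in REH. The share over all protein-coding genes was 65.5%, 66.2% and 65.3% in the trio, 65% in MCC13 and 60.3% in REH. This share thus differed far less between lines over all protein-coding genes than over this gene set.

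The summed level also set MCC13 and REH below the remaining lines. All potassium channel genes together summed to 1724, 1132 and 1399 TPM in the trio, to 434 TPM in REH and to 327 TPM in MCC13. A single gene carried much of this sum in every line. KCNH6 made up 42.03% of it in MKL-1, 30.6% in MKL-2 and 24.9% in WaGa, KCNMA1 made up 39.8% in MCC13, and KCNN1 made up 27.3% in REH. Without KCNH6, the trio still stood at 999.6, 786 and 1051 TPM.

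**Figure D1:**
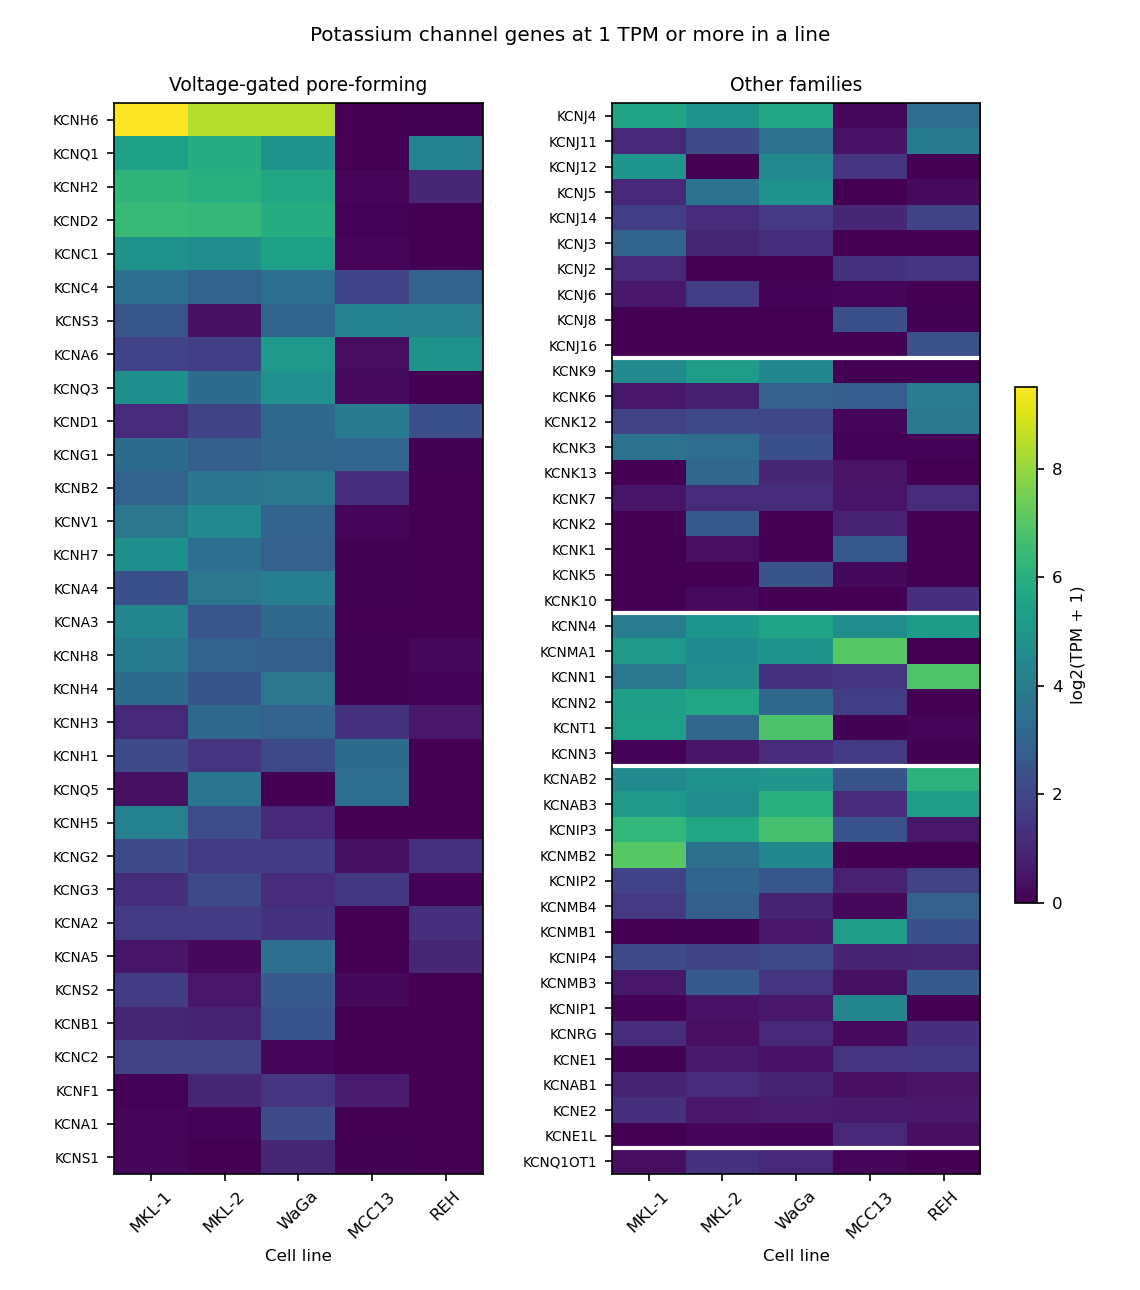
Heat map of log2(TPM + 1) for the potassium channel genes at 1 TPM or more in a line, with 1 row per gene, 1 column per line, the voltage-gated genes on the left and the remaining families on the right, separated by white lines. KCNH6 is the brightest row in the trio, and most voltage-gated rows are dark in MCC13 and REH.

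The families did not follow the same pattern. Voltage-gated genes, silent subunits included, summed to 1182, 740.1 and 816 TPM in the trio, against 70.6 in MCC13 and 83.3 in REH. Calcium- and sodium-activated channels stayed within a narrower range, at 141, 137, 198, 162 and 154 TPM in the trio, MCC13 and REH. Different genes made up that level, as KCNT1 and KCNN2 led the family in the trio, KCNMA1 in MCC13 and KCNN1 in REH. Inward rectifiers summed to between 48.6 and 114 TPM in the trio, 9.07 in MCC13 and 33.5 in REH. Auxiliary genes ranged from 71.5 TPM in MCC13 to 275 TPM in MKL-1.

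**Figure D2:**
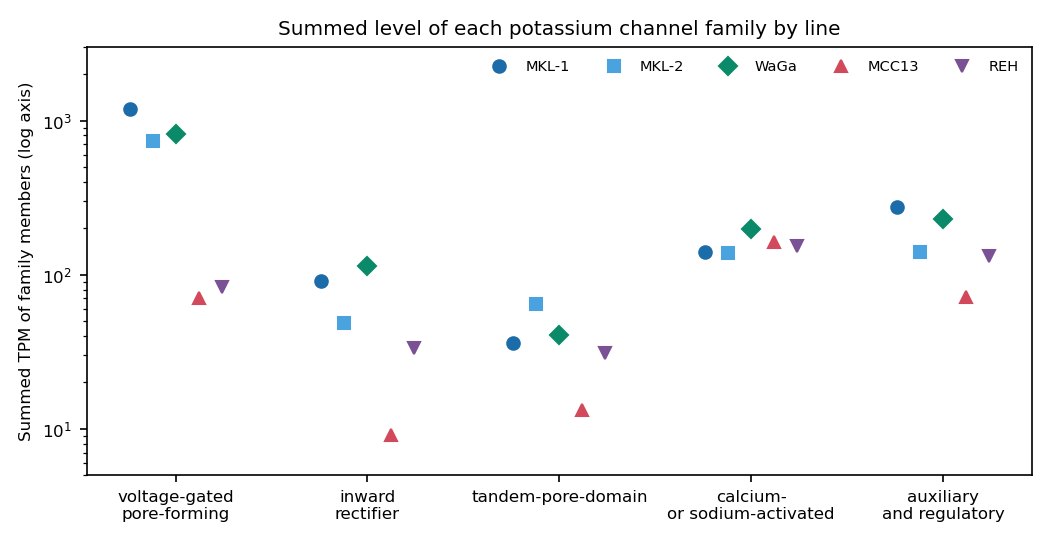
Summed TPM (log axis) of the members of 5 potassium channel families, with 1 symbol per line and no error bars because each line had 1 library. MCC13 and REH (70.6 and 83.3 TPM) lie below the other lines (740.1 to 1182 TPM) for voltage-gated genes and within their range for calcium- or sodium-activated genes.

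Which genes reached 1 TPM divided the lines in the same way. In the trio alike 44 genes reached it, and 19 of these did so in neither MCC13 nor REH. They include voltage-gated genes of several subfamilies (KCNA3, KCNA4, KCNC1, KCND2, KCNH4, KCNH5, KCNH6, KCNH7, KCNH8, KCNQ3 and KCNV1), the G-protein-gated rectifier KCNJ5, the tandem-pore leak channels KCNK3 and KCNK9, the sodium-activated KCNT1, and the auxiliary genes KCNIP4 and KCNMB2. Only KCNE1L, KCNIP1, KCNJ8 and KCNK1 reached 1 TPM in MCC13 alone, and KCNJ16 and KCNK10 in REH alone. Across the 98 genes, log2(TPM + 1) correlated between the lines of the trio with Pearson's r of 0.84, 0.85 and 0.79, and between MCC13 and each of these 3 lines with r of 0.06, 0.11 and 0.12. MCC13 and REH correlated at 0.26. These values are across genes of 1 library per line and serve as a description. Neither these correlations nor the counts of this paragraph have a value over all genes beside them. Whether they are particular to potassium channel genes was not tested.

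Each MCC line was set against the other 3 on the log2(TPM + 1) scale with limma, a linear model fitted here to 20698 genes, with Benjamini-Hochberg adjustment and a call at adjusted p under 0.05. Of the 98 potassium channel genes, 75 reached 1 TPM in an MCC line and were tested. In MCC13, 8 of the 75 were lower and 5 were higher than in the trio. Except for KCNIP3, the 8 lower genes were below 1 TPM in MCC13, so they were tested only because the trio reached 1 TPM. For these genes too, the calls add nothing to the levels. The 5 higher genes (KCNMB1, KCNIP1, KCNK1, KCNJ8 and KCNE1L) were below 1 TPM throughout the trio, so they were tested only because MCC13 reached 1 TPM, their errors come from trio values near 0, and their calls add nothing to their levels. Over all tested genes 8.95% were called, 2.47% lower and 6.47% higher, whereas among potassium channel genes 10.7% were lower and 6.67% higher. Their median difference was -1.41, against -0.30 over all genes (-0.13 after quantile normalization). Lower values were also frequent without a call, with 47 of 75 potassium channel genes in MCC13 below all of the other 3 lines (62.7%, against 43.4% of all tested genes) and 12 above all of them (16%, against 27.7%). The high mesenchymal marker levels of MCC13, and its low neuroendocrine ones other than KRT8 and KRT18, move with these differences. Their part in them was not tested. In bulk RNA, fewer cells that express a gene and less RNA per cell cannot be told apart.

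The KCNH genes, which encode the ether-a-go-go family of voltage-gated channels, held the largest sum of any subfamily in the trio, mostly from KCNH6. All 8 reached 1 TPM in each line of the trio, where they summed to 868, 441 and 436 TPM, against 11.01 TPM in MCC13 and 1.83 TPM in REH. KCNH6 (ENSG00000173826), an ERG-type channel, stood at 725, 346 and 348 TPM in the trio, 0.010 in MCC13 and 0.050 in REH. MKL-1 lay well above MKL-2 and WaGa. MCC13 was lower by a log2 difference of -8.78 ± 0.58 (SE, limma, adjusted p = 0.0111). KCNH2, which encodes hERG, the channel of the rapid delayed rectifier current of the heart, stood at 72.6, 60.6 and 51.1 TPM in the trio, 0.093 in MCC13 and 1.01 in REH. This gene too was lower in MCC13, by -5.82 ± 0.34 (limma, adjusted p = 0.00944). KCNH7, the remaining ERG-type gene, was also higher in the trio than in MCC13 and REH, at lower levels (26.5, 10.2 and 6.56 TPM in the trio, 0.037 in MCC13, listed at 0 in REH) but did not pass (limma, adjusted p = 0.128). KCNH1 went the other way, at 9.15 TPM in MCC13 against 1.75 to 3.52 TPM in the other 3 MCC lines, without passing (limma, adjusted p = 0.206).

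KCNH6 is the most abundant potassium channel gene of the trio, and its promoter is shown beside that of KCNK3 because these were the only potassium channel promoters to hold the left arm of RE1, the element bound by the neuronal gene repressor REST. Sequences are the 250 bases before the RefSeq start (GRCh38.p14), printed in lower case, with the RE1 left arm TTCAGCACC (or its reverse complement) and a GGACAGC run in capitals. KCNH6 (chr17:63523108-63523357, plus strand) and KCNK3 (chr2:26692472-26692721, plus strand) read as follows.
KCNH6: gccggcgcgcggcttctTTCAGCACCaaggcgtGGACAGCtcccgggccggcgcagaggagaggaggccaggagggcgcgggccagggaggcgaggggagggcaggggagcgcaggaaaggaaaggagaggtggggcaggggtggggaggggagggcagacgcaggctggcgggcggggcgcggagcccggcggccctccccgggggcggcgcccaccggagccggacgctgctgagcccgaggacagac
KCNK3: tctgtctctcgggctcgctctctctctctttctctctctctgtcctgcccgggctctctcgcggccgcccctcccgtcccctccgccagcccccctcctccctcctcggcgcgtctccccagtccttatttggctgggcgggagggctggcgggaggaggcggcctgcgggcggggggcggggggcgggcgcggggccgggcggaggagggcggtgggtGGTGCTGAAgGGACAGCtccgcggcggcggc
The left arm begins 233 bases before the start of KCNH6 and 31 bases before that of KCNK3, where it lies on the opposite strand. TTCAGCACC was found on either strand in 2 of 110 promoter windows of 300 bases, which belong to 72 of the 98 genes (1.82%), and in 132 of 35116 promoters of all genes (0.376%). Both windows also held GGACAGC, a combination present in 24 of all promoters (0.0683%), counted on either strand and in any order or spacing. In KCNH6 the left arm and GGACAGC lie on the same strand, and in KCNK3 on opposite strands. The 2 windows therefore do not share 1 arrangement. The right arm of RE1 was in none of the 110 and in 0.259% of all, and no full element was sought. KCNK3, an acid-sensitive leak channel gene, stood at 10.5, 9.44 and 3.93 TPM in the trio and at 0.067 in MCC13 and 0.079 in REH (MCC13 difference -2.98 ± 0.70, limma, adjusted p = 0.113). The motifs were chosen after the values were seen, and a match describes letters, not a bound site.

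KCND2 and KCNIP3, of the A-type current, were lower in MCC13, and KCNIP1 was higher. KCND2, the pore subunit of a fast-inactivating current that spaces action potentials, stood at 86.7, 78.5 and 58.2 TPM in the trio, 0.060 in MCC13 and 0.000591 in REH. The MCC13 level was lower, by -6.13 ± 0.36 (limma, adjusted p = 0.00949), and the 3 high lines lay close together. KCNIP3, a calcium-binding subunit of the same channels, stood at 76.9, 50.5 and 103 TPM in the trio, 4.31 in MCC13 and 0.543 in REH, and was lower in MCC13 by -3.81 ± 0.50 (limma, adjusted p = 0.0407). KCNIP1, another subunit of this kind, was the reverse, at 18.9 TPM in MCC13 against 0.075 to 0.515 TPM in the trio, and listed at 0 in REH. MCC13 was higher for it by 3.93 ± 0.33 (limma, adjusted p = 0.016). KCND1, a second A-type pore gene, stood at 14.6 TPM in MCC13, its highest level, and 8.85 TPM in WaGa but did not pass (limma, adjusted p = 0.363). MCC13 thus held KCND1 with KCNIP1, and the other 3 MCC lines KCND2 with KCNIP3, as the most abundant pore and calcium-binding genes of this channel type.

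KCNC1, which encodes a channel for rapid repolarization in fast-firing neurons, stood at 28.6, 23.99 and 41.3 TPM in the trio, 0.121 in MCC13 and 0.021 in REH (MCC13 difference -4.81 ± 0.47, limma, adjusted p = 0.0213). KCNQ1, the slow cardiac and epithelial channel, stood at 39.9, 57.6 and 29.2 TPM in the trio, 0.002 in MCC13 and 17.2 in REH (MCC13 difference -5.38 ± 0.52, limma, adjusted p = 0.0211). MCC13 was thus the lowest of the MCC lines for both genes, while REH held KCNQ1 above 1 TPM and KCNC1 below it. KCNQ1 overlaps the exons of its antisense RNA KCNQ1OT1, which stood at most at 1.58 TPM in any line. The library kit kept strand, but whether the quantification used it is not stated, so reads of the overlapping exons may not be told apart. KCNQ3, a subunit of the M-current that restrains repetitive firing, stood at 26.2, 9.35 and 27.1 TPM in the trio and at 0.211 TPM in MCC13, and did not pass (limma, adjusted p = 0.0904). KCNQ5, of the same current, reached 12.3 TPM (MKL-2) and 9.93 TPM (MCC13), against at most 0.329 TPM in the other lines.

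Among channels that hold the resting potential, KCNJ4 and KCNK9 were lower in MCC13 and KCNJ8 and KCNK1 higher. KCNJ4, a strong inward rectifier, stood at 45.6, 28.2 and 49.9 TPM in the trio, 0.155 in MCC13 and 9.52 in REH (MCC13 difference -5.15 ± 0.48, limma, adjusted p = 0.0197). KCNK9, an acid-sensitive leak channel, stood at 21.6, 35.9 and 20.3 TPM in the same 3 lines and was listed at 0 in MCC13 and REH (MCC13 difference -4.70 ± 0.51, limma, adjusted p = 0.0275). These levels in the trio varied less than 2-fold around each other, and none overlapped with MCC13. KCNJ8, a pore subunit of the ATP-sensitive channel of vascular smooth muscle, stood at 3.97 TPM in MCC13 against at most 0.025 TPM in the trio (MCC13 difference 2.30 ± 0.13, limma, adjusted p = 0.0089). KCNK1, a weak leak channel, stood at 5.21 TPM in MCC13, 0.324 in MKL-2 and a listed 0 in MKL-1, WaGa and REH (MCC13 difference 2.50 ± 0.25, limma, adjusted p = 0.0239). KCNJ11, the other pore subunit of the ATP-sensitive channel, instead stood at 1.11, 3.68 and 10.7 TPM in the trio, 0.367 in MCC13 and 14.3 in REH.

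The pore gene of the calcium-activated BK channel was expressed in all 4 MCC lines, with different auxiliary genes beside it. KCNMA1, the pore gene, stood at 33.2, 22.9 and 29.5 TPM in the trio and at 130.1 TPM in MCC13, and was listed at 0 in REH. The MCC13 difference of 2.17 ± 0.31 narrowly missed the threshold (limma, adjusted p = 0.0501). KCNMB1, the auxiliary subunit typical of smooth muscle, stood at 36.1 TPM in MCC13, at most 0.541 TPM in the trio and 4.06 TPM in REH (MCC13 difference 4.98 ± 0.39, limma, adjusted p = 0.0146). KCNMB2, a subunit that lets the channel inactivate, stood at 129.98, 10.3 and 20.9 TPM in the trio and 0.025 in MCC13, and was listed at 0 in REH. Its difference did not pass (MCC13 difference -4.96 ± 1.67, limma, adjusted p = 0.192). Among the KCNMB genes, KCNMB1 therefore led in MCC13 and KCNMB2 in the trio. LRRC38, an auxiliary partner outside the KCN symbols, stood at 16.3, 34.8 and 5.49 TPM in the trio and was listed at 0 in MCC13. KCNE1L, a small single-pass auxiliary subunit, was the last gene higher in MCC13, at 1.11 TPM against at most 0.081 TPM (MCC13 difference 1.004 ± 0.11, limma, adjusted p = 0.0302), a level close to the limit of 1 TPM for being tested. KCNE1L shares exon sequence on the same strand with ACSL4, which stood at 93.1 TPM in MCC13 compared with 11.8 to 38.1 TPM in the trio, so its level is uncertain.

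KCNMB1 and KCNIP1, both higher in MCC13, are neighbours on chromosome 5 and overlap on opposite strands without shared exon sequence in GENCODE 29. Their RefSeq promoters are shown because the pair shares this location and pattern. Capitals mark CAGCTG, an E-box, in the 250 bases before the start of KCNMB1 (chr5:170389368-170389617, minus strand) and of the upstream start of KCNIP1 (chr5:170353237-170353486, plus strand), in GRCh38.p14. The other KCNIP1 start (chr5:170503770-170504019) held none of the motifs searched in its 250 bases.
KCNMB1: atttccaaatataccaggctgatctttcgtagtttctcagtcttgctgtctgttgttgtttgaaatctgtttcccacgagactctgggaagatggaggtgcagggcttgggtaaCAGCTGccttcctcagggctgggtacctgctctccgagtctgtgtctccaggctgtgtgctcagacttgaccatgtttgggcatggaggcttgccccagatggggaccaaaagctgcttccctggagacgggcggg
KCNIP1: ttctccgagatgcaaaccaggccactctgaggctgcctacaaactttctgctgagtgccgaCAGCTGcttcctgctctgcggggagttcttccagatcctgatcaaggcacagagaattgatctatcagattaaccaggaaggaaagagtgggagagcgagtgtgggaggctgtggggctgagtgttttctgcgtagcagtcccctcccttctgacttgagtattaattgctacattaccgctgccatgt
CAGCTG was present in 22.7% of the potassium channel promoter windows and in 17.9% of all promoters. Of the other motifs searched, TATAAA was in 8.18% of potassium channel windows and 11.5% of all, and GGAATG, the core of a TEAD site, in 10.9% and 14%.

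**Figure D3:**
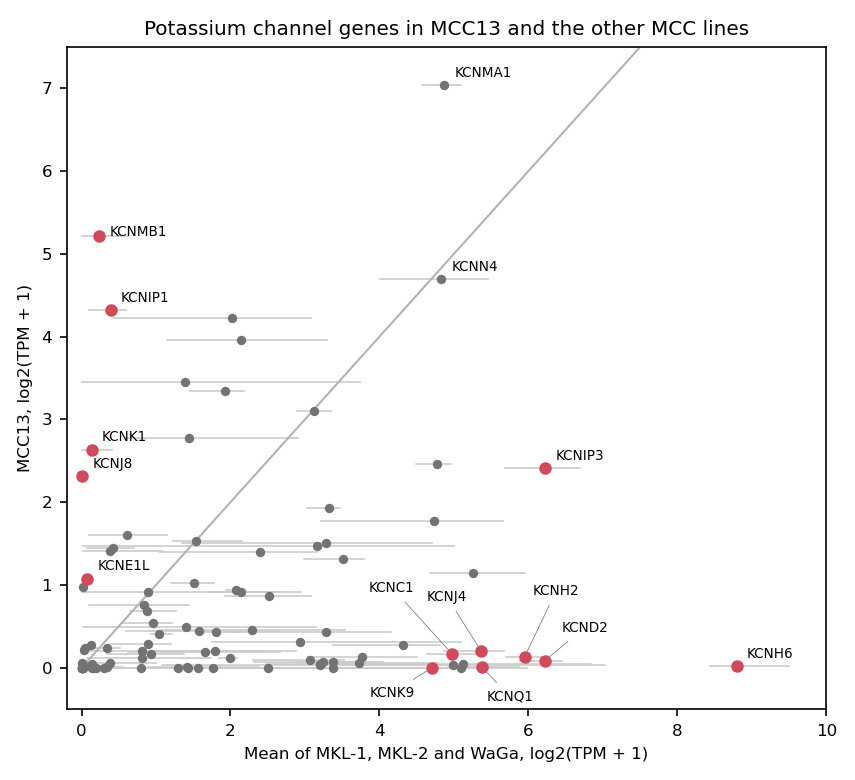
Level in MCC13 against the mean of the trio, both as log2(TPM + 1), for all 98 potassium channel genes, with grey bars from the lowest to the highest of the 3 lines, red points for the 13 genes that passed in limma and a grey line of equal levels. KCNH6, KCND2, KCNH2, KCNQ1, KCNJ4, KCNC1 and KCNK9 lie at the bottom right near 0 in MCC13, KCNIP3 lies above them, and KCNMB1, KCNIP1, KCNK1, KCNJ8 and KCNE1L lie at the left.

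By family, limma called 5 of 35 tested voltage-gated genes lower in MCC13 and 0 higher (31 of the 35 differences were negative). Over all tested genes, 2.47% were called lower and 6.47% higher. For auxiliary genes 3 of 15 were called higher and 1 lower, and for inward rectifiers and tandem-pore channels 1 of 9 was called each way. The higher calls in these families are the 5 genes tested only because MCC13 reached 1 TPM. The lower calls of all families, except KCNIP3, are genes tested only because the trio reached 1 TPM. None of 6 calcium- or sodium-activated genes passed in limma. Unadjusted p was under 0.05 for 32 of the 75 potassium channel genes and for 5516 of all 20698 genes tested (limma). With 1 line against 3, the smallest p of an exact permutation test is 0.25. When any 1 line of the trio was omitted, no potassium channel gene passed in limma, and neither did any other gene. This loss of calls is therefore not particular to potassium channel genes. With a pseudocount of 0.1 the split was 13 lower and 1 higher, with KCNE1L, KCNIP1, KCNK1 and KCNMB1 no longer passing. KCNIP3 and KCNE1L did not pass without the variance trend, nor KCNIP3 without a filter on low values.

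KCNG1 and KCNN4 had small differences in MCC13 that did not pass. KCNG1, a silent subunit that modifies other voltage-gated channels, stood at 9.18, 6.43, 7.73 and 7.56 TPM in the trio and MCC13 (MCC13 difference -0.02 ± 0.41, limma, adjusted p = 0.974). KCNN4, the intermediate-conductance calcium-activated channel known from red cells and lymphocytes, was at 15.2, 31.2, 43.1 and 24.9 TPM in these lines and 35.4 TPM in REH. Its MCC13 difference was -0.13 ± 0.70 (limma, adjusted p = 0.917), and the small differences of KCNG1 and KCNN4 turned positive after quantile normalization, to 0.27 and 0.03. Along with KCNN4, the genes at 1 TPM or more in all 5 lines were KCNAB2, KCNAB3, KCNC4, KCND1, KCNJ14 and KCNN1. KCNAB2 and KCNAB3, cytoplasmic subunits of voltage-gated channels, were at 21.6 to 30.2 and 24.5 to 61.04 TPM in the trio, 4.51 and 1.22 in MCC13 and 67.6 and 39.6 in REH. Both narrowly missed the threshold in MCC13 (limma, adjusted p = 0.0558 and 0.0579). KCNC4, of the family of KCNC1, lay between 7.09 and 10.1 TPM everywhere except MCC13, at 2.80 TPM. KCNJ14, an inward rectifier that shares exon sequence with GRWD1 and is therefore uncertain, lay between 1.03 and 2.86 TPM.

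The lines of the trio also differed among themselves. Of 69 genes that reached 1 TPM somewhere in the trio, 24 spanned less than 1 log2 unit and 24 spanned more than 2, with a median of 1.34. Set against the other 3 MCC lines, no potassium channel gene passed for MKL-1, MKL-2 or WaGa, and neither did any other gene (0% of 20698 in each, limma), with 1, 4 and 4 of 75 at unadjusted p under 0.05. The values below are therefore descriptions of single libraries.

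**Figure D4:**
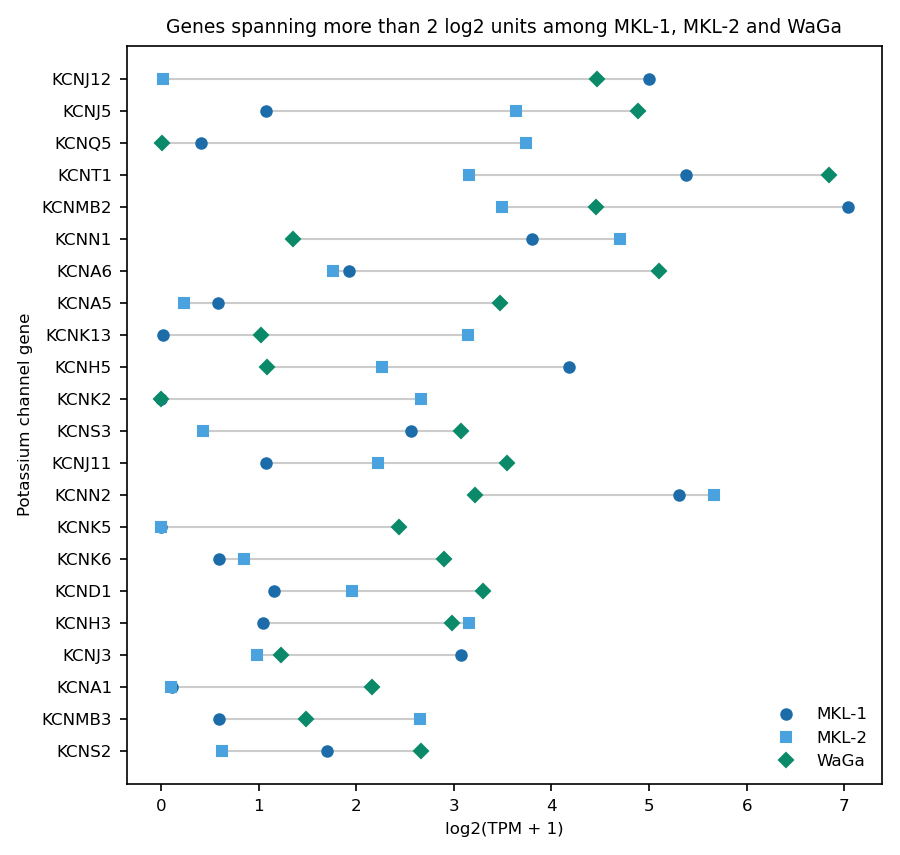
Potassium channel genes that spanned more than 2 log2 units among the trio, as log2(TPM + 1) with 1 symbol per line and a grey bar over their range. KCNJ12 has the widest range, and WaGa holds the highest value of KCNA1, KCNA5 and KCNA6.

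WaGa stood apart for a run of Shaker-type genes. KCNA6, KCNA1 and KCNA5 are neighbours on chromosome 12 and encode pore subunits of delayed rectifiers. In WaGa they stood at 33.3, 3.47 and 10.1 TPM, against 2.81, 0.084 and 0.497 TPM in MKL-1 and 2.38, 0.073 and 0.176 TPM in MKL-2. In MCC13 they were at 0.242 TPM or listed at 0, and in REH only KCNA6 was abundant, at 28.3 TPM. Each was thus highest in WaGa among the MCC lines, by log2 differences of 3.77 ± 1.06, 2.09 ± 0.47 and 3.20 ± 0.63 (limma, adjusted p = 0.9998 for each). KCNA3 and KCNA2, neighbours on chromosome 1, did not follow, with KCNA3, the main voltage-gated channel of T cells, highest in MKL-1 at 19.5 TPM, 4.62 in MKL-2 and 8.64 in WaGa, and listed at 0 in MCC13. KCNT1, the sodium-activated channel, stood at 114.04 TPM in WaGa, 40.5 in MKL-1 and 7.90 in MKL-2, against 0.028 in MCC13. KCNK5, a leak channel of epithelia, stood at 4.43 TPM in WaGa and was listed at 0 in MKL-1 and MKL-2 (WaGa difference 2.37 ± 0.50, limma, adjusted p = 0.9998).

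MKL-2 had the lowest level in the trio of KCNJ12, an inward rectifier, which stood at 0.016 TPM there and at 30.9 TPM in MKL-1, 21.03 in WaGa, 1.76 in MCC13 and 0.011 in REH. KCNJ12 has a near-identical copy in the genome, so its level is uncertain. MKL-2 was highest for KCNK2, a mechanically gated leak channel, at 5.31 TPM (listed at 0 in MKL-1 and WaGa, 0.892 TPM in MCC13), and for KCNK13 at 7.85 TPM (0.017 in MKL-1, 1.04 in WaGa, 0.404 in MCC13). These were single-line values, with limma adjusted p = 0.9997 for both genes. KCNN1 and KCNN2, small-conductance calcium-activated channels that follow action potentials with a hyperpolarization, were lowest in WaGa among the 3 lines. KCNN2 stood at 38.6, 49.7 and 8.32 TPM in the trio and at 2.41 TPM in MCC13, and KCNN1 at 12.9, 25.0, 1.55 and 1.85 TPM. KCNJ5, a subunit of the G-protein-gated rectifier, stood at 1.11, 11.4 and 28.6 TPM in the trio, while its partner KCNJ3 was highest in MKL-1, at 7.44 TPM against 0.973 and 1.34 TPM. MKL-1 was highest for KCNMB2 (difference from the other 3 lines 4.37 ± 1.92, limma, adjusted p = 0.9999).

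The MCC lines were then set against REH with the same model over 22250 genes. Of the 77 tested, 2 passed, both higher in REH, whereas with a pseudocount of 0.1 the split was 2 higher and 1 lower in the MCC lines. KCNJ16, an inward rectifier subunit of kidney and brain, stood at 4.18 TPM in REH and was listed at 0 in the trio and MCC13 (MCC minus REH, -2.37 ± 0.18, limma, adjusted p = 0.0066). KCNK10, a mechanically and lipid-gated leak channel, stood at 1.43 TPM in REH and at 0.009, 0.219, 0.018 and 0.013 TPM in the trio and MCC13 (-1.19 ± 0.19, limma, adjusted p = 0.0454). KCNK10 did not pass with a pseudocount of 0.1, without the variance trend or with mitochondrially encoded genes left out. Both genes were tested only because REH reached 1 TPM, and their small errors come from MCC values at or near 0, so the calls add nothing to these levels. With a mean of 5 TPM or more, 0 genes passed (limma, 4 at unadjusted p under 0.05). The 2 genes are 2.6% of those tested, against 5.24% called over all genes, and 4.15% called lower and 1.09% called higher in the MCC lines. REH lay below all 4 MCC lines for 28 of the 77 genes (36.4%, against 27% of all tested genes) and above all of them for 13 (16.9%, against 25.6%).

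The most abundant potassium channel gene of REH was KCNN1, at 118 TPM against 12.9, 25.0, 1.55 and 1.85 TPM in the trio and MCC13. REH lay above every MCC line, but the difference of -4.06 ± 1.57 did not pass (limma, adjusted p = 0.279). KCNAB2, at 67.6 TPM, KCNK12, at 13.2 TPM against 0.082 to 3.26 TPM, and KCNK6, at 14.9 TPM against 0.510 to 6.49 TPM, were also highest in REH without passing (limma, adjusted p = 0.479, 0.325 and 0.453). KCNK12 is a halothane-inhibited-type tandem-pore subunit and KCNK6 a weak leak channel. KCNS3, a silent subunit, was near equal in REH and MCC13, at 16.6 and 17.7 TPM, and lower in the other 3 lines, at 0.347 to 7.43 TPM. Conversely, KCNMA1 and KCNG1 stood above REH in all 4 MCC lines (5.41 ± 1.06 and 3.07 ± 0.55, limma, adjusted p = 0.0696 and 0.0568). Both passed with a pseudocount of 0.1 (limma, adjusted p = 0.0261 and 0.0214), and KCNG1 also without a filter or without the variance trend (limma, adjusted p = 0.0164 and 0.0237). KCNG1 was at 0.033 TPM in REH, and KCNMA1 was listed at 0 there, which can be a failed estimate.

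**Figure D5:**
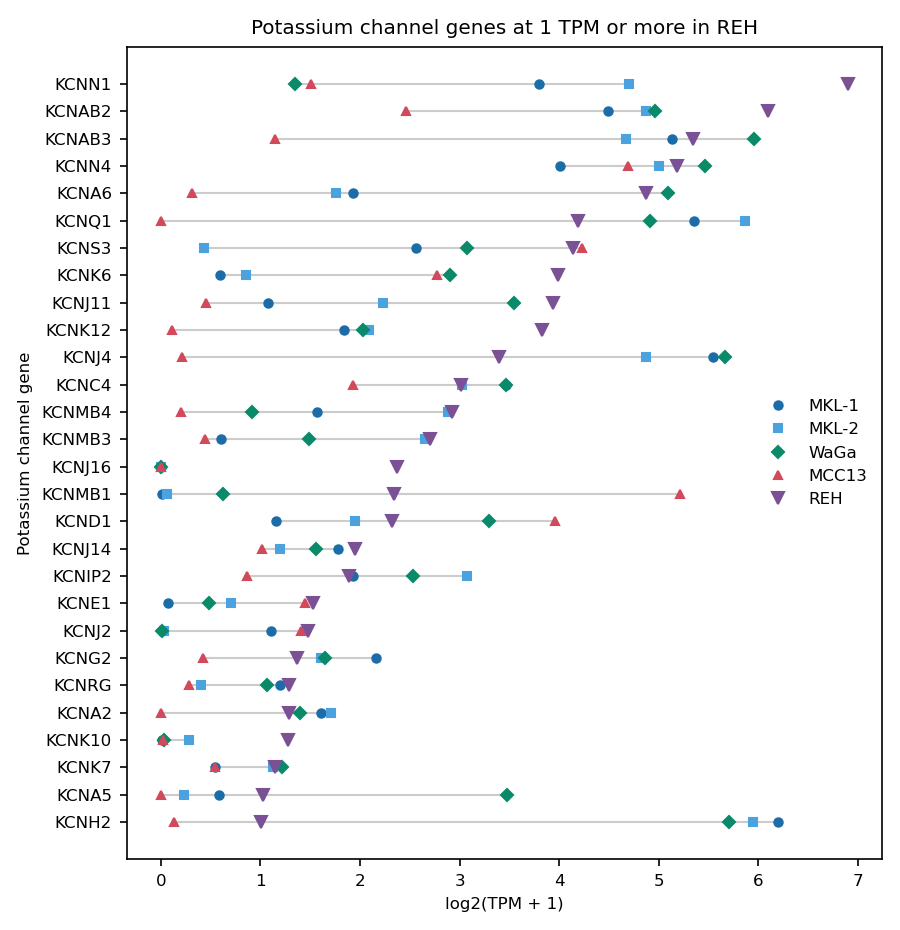
Potassium channel genes at 1 TPM or more in REH, as log2(TPM + 1), with 1 symbol per line and a grey bar over the range of the 4 MCC lines. KCNN1, KCNAB2, KCNK6, KCNK12, KCNJ16 and KCNK10 lie to the right of every MCC line, while KCNH2 and KCNJ4 lie within the wide range set by low MCC13 values.

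Without MCC13, 12 of 73 potassium channel genes passed against REH, 9 higher in the trio and 3 higher in REH (16.4%, against 13.3% of all genes, of which 4.89% were higher and 8.42% lower). Higher in the 3 MCC lines were KCNH6 (8.73 ± 0.57), KCND2 (6.22 ± 0.36), KCNIP3 (5.60 ± 0.51), KCNC1 (4.95 ± 0.46), KCNH2 (4.94 ± 0.33), KCNMA1 (4.87 ± 0.40), KCNK9 (4.70 ± 0.51), KCNB2 (3.51 ± 0.54) and KCNG1 (3.08 ± 0.41), with limma adjusted p from 0.00919 to 0.0438. KCNB2, a delayed rectifier gene, stood at 6.94, 12.3 and 12.9 TPM in these lines and was listed at 0 in REH. Except for KCNH2 (1.01 TPM), the 9 genes were below 1 TPM in REH, so they were tested only because the trio reached 1 TPM. For these genes too, the calls add nothing to the levels. KCNMB1 joined KCNJ16 and KCNK10 among the genes higher in REH, at -2.11 ± 0.34 (limma, adjusted p = 0.0468). These 3 genes were tested only because REH reached 1 TPM, and their errors come from trio values below 1 TPM. Their calls add nothing to their levels. This comparison and that of MCC13 share the trio, so the genes they have in common are not separate evidence. With all 4 MCC lines KCNH6 differed from REH by 6.53 ± 3.996 (limma, adjusted p = 0.497). With MCC13 kept and any 1 line of the trio omitted, no potassium channel gene passed in limma, and neither did any other gene. With 4 lines against 1, the smallest p of an exact permutation test is 0.2.

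Genes outside the KCN symbols that work with these channels or move potassium were read from 3 lists. Of 9 auxiliary partners, 5 were tested within the MCC lines, none passed in MCC13, and the median difference there was -3.39. DPP6 and DPP10, surface partners of A-type channels, stood at 19.5 and 37.3 TPM in MKL-1, 7.19 and 0.356 in MKL-2, 28.9 and 33.1 in WaGa, and a listed 0 and 0.152 in MCC13 (limma, adjusted p = 0.109 and 0.46). ABCC8, the sulfonylurea receptor that pairs with KCNJ11, was highest in WaGa at 16.8 TPM, as KCNJ11 was among the MCC lines, and was listed at 0 in REH, where KCNJ11 was highest of all lines. LRRC26, an auxiliary subunit of BK channels, stood at 2.70 TPM in REH against at most 0.203 TPM in the MCC lines (-1.76 ± 0.21, limma, adjusted p = 0.0204), and KCNMA1 was listed at 0 in REH. LRRC26 was tested only because REH reached 1 TPM, and its error comes from MCC values near 0. The call therefore adds nothing to its level.

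Of 7 hyperpolarization-activated and other potassium-permeable channels, 6 were tested within the MCC lines and 2 passed, both lower in MCC13 (median difference -2.28), where 2.47% of all tested genes were called lower and the median was -0.30. HCN3 and HCN4, pacemaker channel genes, stood at 35.3 and 20.7 TPM in MKL-1, 34.2 and 18.8 in MKL-2, 39.6 and 19.98 in WaGa, and 3.55 and 1.27 in MCC13. Their differences in MCC13 were -3.04 ± 0.27 and -3.20 ± 0.33 (limma, adjusted p = 0.0185 and 0.0247), and the trio lay close together. TMEM175, a lysosomal potassium channel, ranged from 24.4 TPM in REH to 70.2 TPM in MKL-1. Of 15 potassium pump and cotransporter genes, 12 were tested in each of the comparisons and none passed in any (limma). ATP1B1, an auxiliary subunit gene of the sodium pump, was lowest in REH, at 3.83 TPM against 33.9 to 288 TPM, and ATP1B3 lay between 39.9 and 165 TPM. SLC12A7, a potassium-chloride cotransporter, stood at 891 TPM in MKL-2 and at 1.92, 11.9, 23.0 and 137 TPM in MKL-1, WaGa, MCC13 and REH.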

How the data were processed

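RNA of 5 cell lines (4 MCC lines and REH, 1 library each) was measured. The authors' deposited table gives TPM for 57905 genes. The submitters' processing notes name StringTie 1.3.5, SAMtools 0.1.19, STAR 2.4.5b and bcl2fastq 2.20, and the builds hg19 and GRCh37, without role or order. The sources used here do not give annotation or strand setting. Depth is unknown. A column of values matching no sample (1) was not used.

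Comparisons used limma 3.58.1 (R 4.3.3; variance trend, 2-sided) on log2(TPM + 1), among genes at 1 TPM or more in a compared line, adjusted over all genes tested. The spread of a lone line was taken to be that of the others (3 or 2 residual degrees of freedom). The fit was tested on simulated data. Alternatives covered pseudocount, filter, scaling, trend and left-out lines.

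The members and lists were chosen with earlier results of these data known. Named by rule were the 6 most abundant members per line, all that passed, those at 1 TPM in all 5 lines and each family's highest. Other genes were named after their values were seen. GENCODE 29 gave gene types and neighbours, and RefSeq (GRCh38.p14) the promoters. Some genes are counted in the totals but are not reported here, and have no row in the plots that name genes.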

Additional observations from a re-analysis of the deposited data

Results flagged for a closer look

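Of the 30 genes named by rule, 13 had 1 line of the 4 MCC lines far from the other 3, with a gap that passed Dixon's critical value for 4 samples on the log2(TPM + 1) scale. Chance gives such a gap in about 1 of 20 groups. The rule for naming took in every gene that passed in limma, which uses the same values, so the count of 13 is no separate evidence. Without that choice, 18 of 75 potassium channel genes at 1 TPM or more in an MCC line had such a gap (24%), against 14% of 20698 genes. In 12 of the 13 flagged genes named by rule the distant line was MCC13, and these are 12 of the 13 genes that differed in MCC13 above. MCC13 was distant on the low side for KCNH6 (0.0102 TPM), KCND2 (0.0597 TPM), KCNH2 (0.0934 TPM), KCNC1 (0.121 TPM), KCNJ4 (0.155 TPM), KCNQ1 (0.00208 TPM) and KCNK9 (listed at 0). MCC13 was distant on the high side for KCNMB1 (36.1 TPM), KCNIP1 (18.9 TPM), KCNK1 (5.21 TPM), KCNJ8 (3.97 TPM) and KCNE1L (1.11 TPM). The remaining flagged gene was KCNK10 in MKL-2, at 0.219 TPM against at most 0.018 TPM in the other 3. It was below 1 TPM in every MCC line and is not among the 75.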

How the results depend on the processing

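No paired analysis was possible because each line had 1 library and the labels give no shared replicate numbers. Against REH, the 2 potassium channel genes that passed became 6 without a filter on low values, 0 with a mean of 5 TPM or more (4 at unadjusted p under 0.05, limma) and 1 with mitochondrially encoded genes left out. Leaving out each MCC line in turn gave 12 without MCC13. Without MKL-1, MKL-2 or WaGa no potassium channel gene passed, and neither did any other gene. In MCC13, none of the 13 genes and no other gene passed without MKL-1, MKL-2 or WaGa. The 13 became 11 to 14, not always the same genes, under the settings of pseudocount, filter, scaling and trend. At 5 TPM in place of 1 TPM, the lines in the order MKL-1, MKL-2, WaGa, MCC13, REH expressed 30, 35, 38, 11 and 14 genes. With mitochondrially encoded genes left out, the summed levels of MKL-1, MKL-2, WaGa, MCC13 and REH were 1844, 1228, 1494, 339 and 438 TPM. Some differences that did not pass turned sign. Against REH, KCNC4 (-0.045) was 0.0244 with mitochondrially encoded genes left out and -0.21 to 0.30 with each MCC line left out in turn, and KCND1 (0.27) was -0.19 to 0.75, the sign turning without MCC13 in both. In MCC13, KCNG1 (-0.02) was 0.27 with quantile normalization and -0.14 to 0.0882 with each line left out, turning without MKL-1, and KCNN4 (-0.13) was 0.0295 and -0.54 to 0.19, turning without WaGa. The cause was not tested. TPM keeps no depth, so the precision of low values is unknown.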
